A study of Homo sapiens with 72 samples.

Results

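The 46 genes described here are type I interferon-stimulated genes, the set that cells transcribe when interferon alpha or beta engages its receptor or when RNA sensors are active. They were taken by symbol from the 61541 genes of each of the authors' 11 deposited comparison tables, and a gene was used in a table only where its base mean, the normalised read count averaged over the libraries of that comparison, was at least 10. All 46 symbols were found, 20 of them reached that level in all 11 tables, and 4 reached it in none. Those 4 were IFNB1, the interferon beta gene itself, the chemokine gene CXCL10, the transcription factor gene IRF7 and the antiviral GTPase gene MX2. In the knockout over wild-type table CCL5 lay just inside the limit with a base mean of 10.6, and OAS2 just outside it with 9.75.

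G3BP1 and G3BP2 are RNA-binding proteins that nucleate stress granules, cytoplasmic bodies in which stalled messenger RNAs collect. The first experiment used human U2OS osteosarcoma cells and held 3 groups of 2 libraries: wild-type cells, G3BP1/2 knockout cells, and knockout cells carrying a Lipofectamine-transfected G3BP1 for 24 h. Wild-type and knockout cells were untreated and untransfected. The second experiment used U2OS G3BP1/2 knockout cells only, in 6 groups of 2 libraries. These were knockout cells, knockout cells transfected for 24 h with wild-type G3BP1 (wild-type rescue), and knockout cells transfected for 24 h with a G3BP1 that lacks the NTF2 domain, the part through which G3BP1 forms dimers (NTF2-deletion rescue), each without or with 200 uM sodium arsenite for 2 h. No second-experiment table contained wild-type cells, and without a mock-transfected group the effect of G3BP1 and the effect of transfection cannot be told apart in any rescue. Whether the knockout line was 1 clone is not given in the sources used here. The RNA immunoprecipitation (RIP) compared 3 FLAG-G3BP1 immunoprecipitates with 3 inputs of FlpIn 293 TREx cells, a human embryonic kidney line whose stably integrated FLAG-G3BP1 was induced with 1 ug/mL tetracycline for 24 h. The labels do not say that libraries of one group came from separate cultures, so every p-value below measures only the spread between these libraries.

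Cytosolic sensors such as RIG-I (RIGI) and MDA5 (IFIH1) detect double-stranded RNA and switch on interferon beta, and interferon then acts through its receptor on transcription factors, STAT2 and IRF9 among them, that bind the interferon-stimulated response element of target promoters. The products of those targets include RNA-binding and RNA-degrading effectors (the IFIT, OAS, ISG20 and SAMD9 families), proteins that block virus entry or release (IFITM, MX1, BST2), the ubiquitin-like modifier ISG15 with its ligases and protease, and the ADP-ribosyltransferase group PARP9, PARP14 and DTX3L.

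The response element could be read directly in the promoters. RefSeq start sites on GRCh38.p14 gave a window for 37 of the 46 genes. Its core, GAAA followed by any 2 bases and GAAA (GAAA, NN, GAAA), searched on both strands, lay within the 250 bases before a start site in 23 of the 37 (62.2%), against 3.71% of all 27305 genes with a window. A stricter form with CT after the second GAAA lay in 13 (35.1%), against 0.271%, and the gamma-activated site TTCNNNGAA, also on both strands, in 11 (29.7%), against 8.09%. Matches can overlap one another, and a gene with several start sites counts once. In the 23 genes, the match nearest a start site lay 11 to 211 bases before it, with a median of 63. The following 30-base stretches hold the match nearest the start and are shown for genes on which the results below turn, written 5′ to 3′ on the strand that carries the core, with the core in capitals.
ISG15: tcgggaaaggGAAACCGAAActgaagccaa
HERC5: agctccagtgGAAAACGAAAcataatgttt
IFIT1: gaaacctaggGAAACCGAAAggggaaagtg
IFIT5: gtaagcttcaGAAACCGAAActtaatagaa
OAS3: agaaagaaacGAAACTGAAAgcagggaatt
ISG20: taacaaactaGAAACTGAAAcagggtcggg
IFIH1: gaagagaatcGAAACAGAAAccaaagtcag
PARP9: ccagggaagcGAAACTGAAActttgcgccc
PARP14: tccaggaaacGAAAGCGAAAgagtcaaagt
LGALS3BP: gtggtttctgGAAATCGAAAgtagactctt
IFI6: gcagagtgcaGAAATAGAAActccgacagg
These stretches were chr1:1013380-1013409 on the plus strand (ISG15), chr4:88457035-88457064 on the minus strand (HERC5), chr10:89392510-89392539 on the minus strand (IFIT1), chr10:89414513-89414542 on the minus strand (IFIT5) and chr12:112938321-112938350 on the plus strand (OAS3). The others were chr15:88638937-88638966 on the plus strand (ISG20), chr2:162318686-162318715 on the minus strand (IFIH1), chr3:122564322-122564351 on the plus strand (PARP9), chr3:122680800-122680829 on the plus strand (PARP14), chr17:78979962-78979991 on the minus strand (LGALS3BP) and chr1:27672266-27672295 on the minus strand (IFI6). PARP9 and DTX3L are transcribed away from each other from adjacent starts, and the PARP9 match falls in the DTX3L window only when the 50 bases after the start are included. A match describes the letters in a window and is not a measured binding site.

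Whole read counts per library could be worked out from the base means for all 46 genes in the 18 U2OS libraries, so levels are given below as normalised reads in the lower and the higher library of a group, separated by a slash. Normalised gene reads averaged 44217175 to 46949956 per library in the first-experiment tables and 11990915 to 17893716 in the second. RNA of the targeted genes was lower but still present in the first knockout, which does not check the protein. G3BP1 had 12284/12319 normalised reads in knockout, 17702/18582 in wild type and 19750.4/20046 in the rescue. G3BP2 had 6237/6448 in knockout and 7919/8423 in wild type. In the authors' deposited table for the second experiment, G3BP1 was 7.31 ± 0.04 log2 units higher in the wild-type rescue than in knockout, and the NTF2-deletion table gave 7.75. All 8 mesenchymal markers checked for U2OS had base means of at least 10 in the first experiment and 7 of 8 in the second, and 5 of 6 embryonic kidney markers did so in the RIP. The kidney markers also did so in U2OS cells, 6 of 6 in the first experiment and 4 of 6 in the second. In the RIP 6 of 8 mesenchymal markers did, so these counts do not tell the 2 lines apart. Levels of the mesenchymal markers differed between knockout and wild type, with log2 fold changes from -3.56 (CDH11) to 3.49 (ALPL) in the authors' deposited table, and their part in the results was not tested. These are bulk RNA libraries, in which fewer cells of a kind and less RNA per cell cannot be told apart.

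G3BP1/2 knockout cells held more RNA of most interferon-stimulated genes than wild-type cells. In the knockout over wild-type comparison 22 of the 38 measured members were higher and 6 were lower at an adjusted p under 0.05, with a median log2 fold change of 0.96. Over all 20718 tested genes 45.9% were called, 22.2% higher and 23.7% lower, and the median was 0.008. Summed over the 46 members, knockout libraries held 50999 and 52485 normalised reads, wild-type libraries 23775 and 24336. The 7 genes of ISG15 conjugation and ADP-ribosylation all rose, with a median of 1.82, whereas the sensors, the effectors on RNA, the entry and release group and the transcription factors each held members that rose and members that did not. With the Wald statistics (fold change over standard error) divided by their robust spread over all genes, which was 3.06, 9 members passed, all of them higher in knockout.

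The interferon beta gene and the chemokine genes of the set had few or no reads. IFNB1 had 0 reads in each of the 18 U2OS libraries, so only the limit of detection is known for it. CXCL10 had 1.72/4.54 normalised reads in knockout and 3.04/8.92 in wild type. CCL5, a chemokine gene, had 14.7/20.6 in knockout and 2.97/4.05 in wild type, and in the authors' deposited table its difference of 1.02 ± 0.46 log2 units missed the threshold (adjusted p = 0.0651). The 8 members under the limit in this table were IFNB1, CXCL10, IRF7, OAS2, MX2, IFITM1, RSAD2 and IFI35, with at most 15.2 normalised reads in any knockout or wild-type library, the highest being RSAD2 in wild type.

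Among the 4 RNA and DNA sensors, 2 rose. IFIH1, the sensor of long double-stranded RNA, had 945/963 normalised reads in knockout against 126/129.7 in wild type. The authors' deposited table gave it a change of 2.82 ± 0.15 log2 units, with ± for the standard error here and below (adjusted p = 4.89e-73). DDX60, a helicase linked to RNA sensing, had 491/587 in knockout and 170.3/205 in wild type. Knockout lay above wild type with no overlap for all 4 sensors, but RIGI and the DNA sensor gene IFI16 were close in the 2 genotypes and were not called. RIGI had 82.5/93 in knockout and 61.8/79.3 in wild type, and IFI16 had 1609.9/1782 and 1576/1580.5.

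The transcription factors moved little and not together. STAT2, a subunit of the interferon-activated complex, had 3104/3130.0 normalised reads in knockout and 3547/3592 in wild type and was called lower, with a log2 fold change of -0.19 in the authors' deposited table. IRF1, which binds related promoter elements, had 657/754 in knockout and 525/548 in wild type and was called higher at 0.38 in the authors' deposited table. IRF9 was not called. SP100, a component of nuclear bodies, had 1400.1/1412 in knockout and 1713/1755 in wild type and was called lower.

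The effectors on RNA did not move alike, and neither did the OAS family. OAS3, which makes the second messenger that activates RNase L, had 4458/4787 normalised reads in knockout against 742/814 in wild type, a log2 fold change of 2.55 ± 0.08 in the authors' deposited table (adjusted p = 1.39e-209). OAS1 had 132/142 against 19.3/22.8 and was called higher at 2.27 ± 0.33 in the authors' deposited table (adjusted p = 4.54e-11). OASL, a relative without synthetase activity, had 27.2/57.5 in knockout and 54.5/95.3 in wild type and was not called. The IFIT genes, whose products bind foreign RNA ends, were lower or not called. IFIT1 had 219.9/236 in knockout and 384/420.1 in wild type, and IFIT5 had 899/911 and 1361/1409. Both fell, at -0.79 ± 0.18 (adjusted p = 3.97e-05) and -0.61 ± 0.10 (adjusted p = 7.81e-09) log2 units in the authors' deposited table, and IFIT2 and IFIT3 were not called. The 10 nearest tested genes that are no members had a median of -0.57 for IFIT1 and for IFIT5, close to the IFIT5 value. The IFIT libraries of the 2 genotypes did not overlap for IFIT1 and IFIT5. The exonuclease gene ISG20 and the paralogs SAMD9 and SAMD9L, whose products restrict poxviruses, rose. SAMD9L had 632/671 in knockout against 129/135 in wild type, ISG20 349.6/356 against 131/143, and SAMD9 1261/1282 against 669/673. The IFIT, OAS and IFITM families, the SAMD9 pair, and USP18 and TRIM22 with their near copies or relatives hold similar sequences, and how shared reads were counted is not given in the sources used here.

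Of the 6 measured genes that act on virus entry, assembly or release, BST2 and MX1 rose and TRIM22 fell. BST2, which tethers budding virus to the cell surface, had 113/126 normalised reads in knockout against 20.3/26.8 in wild type. MX1, a GTPase that traps viral nucleocapsids, had 143/166 against 39.6/61.8, a log2 fold change of 1.41 ± 0.30 in the authors' deposited table (adjusted p = 1.25e-05). TRIM22, a ubiquitin ligase, had 443/453 in knockout and 819/855 in wild type. The membrane proteins IFITM2 and IFITM3, which block virus fusion, and the nucleotide kinase CMPK2 were not called. IFITM3 had 2201/2243 in knockout and 2026/2111 in wild type, a difference of 0.10 ± 0.08 log2 units (adjusted p = 0.339) in the authors' deposited table.

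All 7 genes of ISG15 conjugation and ADP-ribosylation rose. HERC5, the main ligase that attaches ISG15 to new proteins, had 199/209 normalised reads in knockout and 1.01/1.98 in wild type, where the 2 libraries together held 3 reads. Reads pooled over the 2 libraries of each group and scaled for depth had a ratio of 136. The 95% interval of 46.2 to 662 covers counting error only (exact Clopper-Pearson on the reads). The log2 fold change of HERC5 was 4.70 ± 0.38 (adjusted p = 3.90e-33) in the authors' deposited table. PARP9 and DTX3L, which form one complex, had 2785/2987 and 5821/6100.2 normalised reads in knockout, against 734/766 and 1625/1691 in wild type. Their log2 fold changes were nearly equal in the authors' deposited table, 1.93 ± 0.09 (adjusted p = 3.40e-102) and 1.84 ± 0.07 (adjusted p = 3.30e-160). PARP14 had 8549/8599 in knockout and 2309.5/2529.8 in wild type. USP18, the protease that removes ISG15 and also damps receptor signalling, had 280.2/294 against 100.3/106. ISG15 itself had 471/565 against 258/327 and HERC6 403/457 against 251/254, the 2 smallest changes of the group at 0.79 and 0.74 log2 units in the authors' deposited table.

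The remaining interferon-induced genes held the strongest rise of the set. XAF1, a proapoptotic factor, had 351/394 normalised reads in knockout and 1.98/2.03 in wild type, 4 reads in the 2 wild-type libraries together. The ratio of the pooled and scaled reads was 184 (95% interval 71.7 to 679, counting error only), and the authors' deposited table gave a log2 fold change of 5.46 ± 0.35 (adjusted p = 6.54e-52). LGALS3BP, a secreted glycoprotein, had 10887/11293 in knockout and 2765/2844 in wild type. Without it the summed members still stood at 40112 and 41192 in knockout against 21011 and 21493 in wild type. IFI6, a mitochondrial protein, IFI44 and IFI44L rose as well, with 189/195 against 61.8/72.3 for IFI44L. IFI27 went the other way, with 21.5/27.2 in knockout and 66.4/81.1 in wild type. Its fold change of -1.27 in the authors' deposited table was close to the median of its 10 nearest tested genes that are no members, -1.31.

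**Figure D1:**
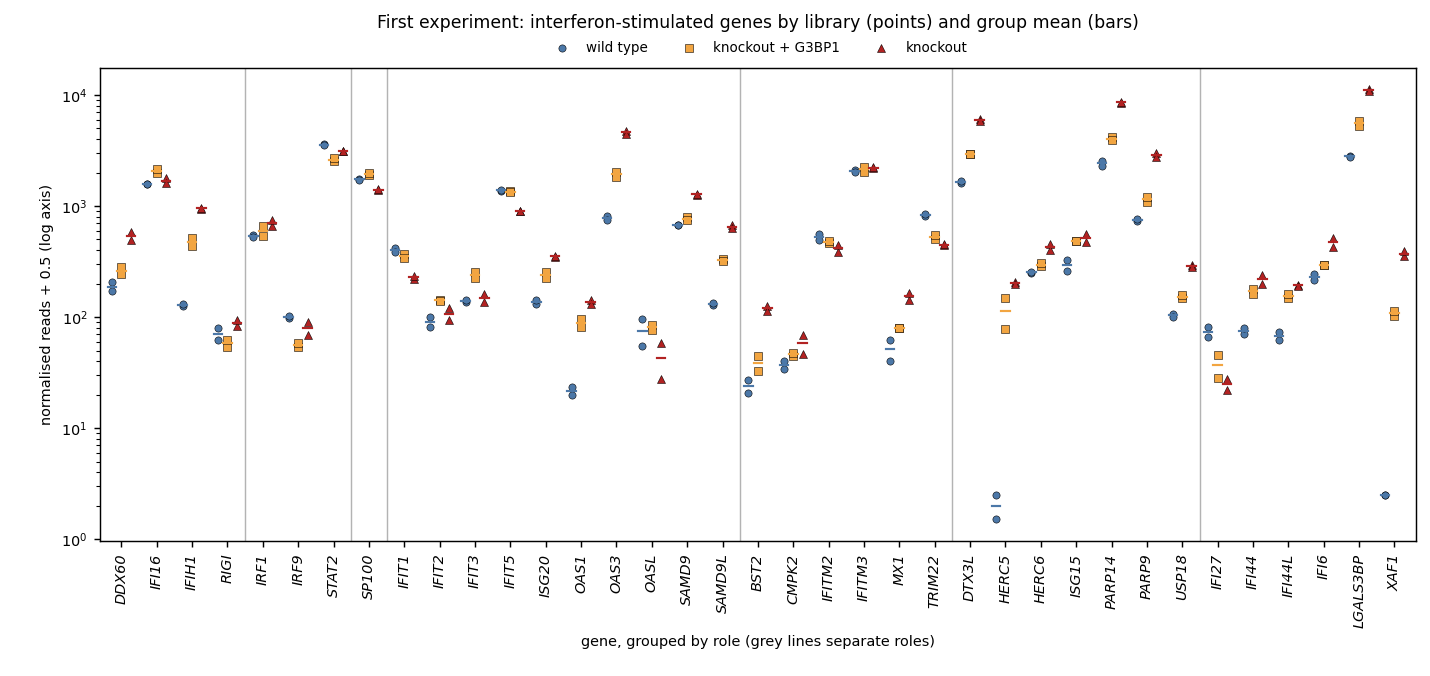
Normalised reads plus 0.5 (log axis) of the 37 genes used in all 3 first-experiment tables, grouped by role; each point is 1 library and each bar the mean of a group of 2. Red triangles (knockout) stand above blue circles (wild type) for most genes, XAF1 and HERC5 show the widest gaps, and IFIT1, IFIT5, TRIM22 and IFI27 show the opposite order.

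In the first rescue the genes that had risen stood between knockout and wild type. Against the first-experiment rescue, 18 of 40 measured members were higher in knockout and 5 were lower, where 41.5% of all tested genes were called (17.8% higher, 23.7% lower), with a median log2 fold change of 0.34. With Wald statistics divided by their robust spread, 7 passed. For all 22 members that had risen in knockout the rescue mean lay between the wild-type and knockout means, and for 20 of these both rescue libraries did. By the signs of the deposited folds the rescue lay between for 64.5% of all 4425 genes called higher in knockout, a group chosen, like the 22, on the same knockout libraries. XAF1 had 102/113 normalised reads in the rescue, HERC5 77.7/148 and LGALS3BP 5304/5826. The 2 rescue libraries of HERC5 lay far apart, though both stayed between the genotypes. The deposited log2 fold changes of knockout over rescue were led by XAF1 at 1.62 ± 0.19 (adjusted p = 2.39e-16), PARP9 at 1.31 ± 0.08 (adjusted p = 6.16e-55), BST2 at 1.26 ± 0.28 (adjusted p = 2.52e-05) and OAS3 at 1.24 ± 0.07 (adjusted p = 2.99e-66), as the authors' deposited table has them. Summed over the 46 members the rescue libraries held 32164 and 32755 normalised reads.

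The comparison of wild type with the rescue shares its libraries with the other 2 tables. There 17 of 39 members were lower in wild type and 3 were higher, against 39.3% of all genes called (22.5% lower, 16.8% higher). With Wald statistics divided by their robust spread, 7 passed here too, all lower in wild type. XAF1 at -2.63 ± 0.29 (adjusted p = 1.40e-18), HERC5 at -2.57 ± 0.29 (adjusted p = 1.79e-17), IFIH1 at -1.73 ± 0.17 (adjusted p = 9.41e-22) and OAS1 at -1.33 ± 0.28 (adjusted p = 1.24e-05) had the largest remaining differences from wild type, as log2 units in the authors' deposited table. DDX60, SAMD9, MX1, BST2, USP18, HERC6, IFI6 and IRF1 had risen in knockout and were not called between wild type and rescue, which does not show that they were equal. ISG15 stayed near its knockout level in the rescue, with 481/485 normalised reads, both inside the knockout range of 471/565. Of the 6 members lower in knockout, IFIT1, IFIT5, TRIM22 and IFI27 had rescue means between the genotypes. STAT2 had 2523/2719.5 in the rescue, below knockout, and SP100 had 1917/1996, above wild type. IFIT3 was not called between knockout and wild type, and its rescue level of 223/257 stood above both knockout at 136/161 and wild type at 137/142.

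In the second experiment most members were lower with either G3BP1 form than in knockout. With wild-type rescue 24 of 35 measured members fell and 4 rose relative to knockout, with a median log2 fold change of -1.16, where 51.9% of all tested genes were called (23% lower, 28.8% higher) and the median gene stood at 0.03. With NTF2-deletion rescue 21 of 36 fell and 4 rose, with a median of -0.97, where 51.3% of genes were called (22.8% lower, 28.5% higher). The 2 tables share the knockout libraries. With Wald statistics divided by their robust spread, 4 members passed in each, all lower with rescue. Among genes with base means of at least 100 the median fold change was 0.176 log2 units with wild-type and 0.165 with NTF2-deletion rescue. Falls of members are larger by that amount relative to it. For the arsenite-treated rescues over untreated knockout, described below, this median was 0.225 and 0.194 in the same order. Summed over the members, knockout libraries held 13875 and 14619 normalised reads, wild-type rescue 7581 and 7739, and NTF2-deletion rescue 8026 and 8396.

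By role, the sensors IFIH1 and DDX60 fell and IFI16 rose, though the IFI16 call with wild-type rescue was lost when the table was centred on its median gene (0.29 log2 units). DDX60 had 182/199.6 normalised reads in knockout, 51/67.3 with the wild-type form and 48.1/49.5 with the NTF2-deletion form. IFI16 had 418/464, 595/633 and 611/676 in the same order. Neither gene's knockout range overlapped a rescue range. STAT2 fell from 821/904 to 392/405 and 404/474, and SP100 rose from 349/365 to 619/651 and 619/656.

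Among effectors on RNA, IFIT1 showed the largest fall. It had 66.5/75.2 normalised reads in knockout, 0/0.99 in wild-type rescue, where a single read was found over both libraries, and 7.21/7.54 in NTF2-deletion rescue. The ratio of knockout to wild-type rescue in pooled and scaled reads was 145 with a 95% interval of 25.6 to 5758 from counting error. Its log2 fold changes were -4.20 ± 0.54 (adjusted p = 9.12e-14) and -2.69 ± 0.45 (adjusted p = 1.48e-08), in the authors' deposited table of each rescue, values that the authors' processing shrank toward 0. Without the one wild-type rescue library that held the read, the log2 ratio of group means went from -6.16 to -7.16, with 0.5 normalised reads added to each mean. The library left had 0 reads, so the size of the second value is set by the added 0.5. IFIT2 also fell, from 22.8/23.6 to 3.96/6.73 and 5.41/5.66, whereas IFIT5 rose from 185/198 to 326/366 and 323/326. The IFIT family was therefore split within this experiment, with IFIT3 not called in either rescue. OAS3 had 1051/1125 in knockout, 354/369 with the wild-type form and 459/476 with the NTF2-deletion form. ISG20 rose from 113/131 to 268/339.5 and 296/323, the largest rise of the set at 1.27 and 1.30 log2 units in the authors' deposited table of each rescue. SAMD9, SAMD9L and OAS1 fell in both rescues.

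TRIM22 and BST2 led the genes that act on virus entry or release. TRIM22 had 83.8/130.2 normalised reads in knockout, 9.9/13.5 with the wild-type form and 6.31/16 with the NTF2-deletion form, a log2 fold change of -2.77 ± 0.41 (adjusted p = 9.67e-11) with wild-type rescue in the authors' deposited table. BST2 had 61.8/69.8, 7.92/8.65 and 3.77/11.7. The NTF2-deletion libraries of both genes differed widely from each other while staying far below knockout. IFITM3 was called lower with wild-type rescue only, from 604/606 to 447/480.1, and the test of the 2 rescues against each other did not call it. The log2 ratio of group means in the NTF2-deletion comparison moved from -3.01 to -3.96 for BST2 and from -3.20 to -3.98 for TRIM22 when the higher of their NTF2-deletion libraries was left out. MX1 had 36.1/43 in knockout, 10.6/19.8 with the wild-type form and 18.9/27.3 with the NTF2-deletion form, and was called in neither.

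In the ISG15 and ADP-ribosylation group 6 of 7 fell with wild-type rescue and 5 of 7 with NTF2-deletion rescue. PARP9 went from 849/874 in knockout to 176/209.6 and 217/247 normalised reads, and DTX3L from 1312/1469 to 824/839 and 818/834. The fold changes of these partners, close to each other in the first experiment, were -2.13 ± 0.15 (adjusted p = 1.03e-46) and -0.74 ± 0.10 (adjusted p = 1.45e-12) log2 units here in the authors' deposited table, and the difference between the genes was not tested. USP18 went from 94.6/101 to 14.8/15.4 and 13.2/22.5. HERC5, which had one of the widest gaps in the first experiment, had 41.8/45.1 in knockout, 18.8/28.8 with the wild-type form and 19.8/21.7 with the NTF2-deletion form, and was called in neither table. All 5 measured members of the last group fell in both rescues. XAF1 had 104/108, 10.6/18.8 and 11.7/24.5, and without the higher NTF2-deletion library its log2 ratio to knockout went from -2.52 to -3.13. IFI44L had 95.6/117, 9.9/10.6 and 14.4/18.9, a log2 fold change of -2.93 ± 0.41 (adjusted p = 4.70e-12) with wild-type rescue in the authors' deposited table.

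**Figure D2:**
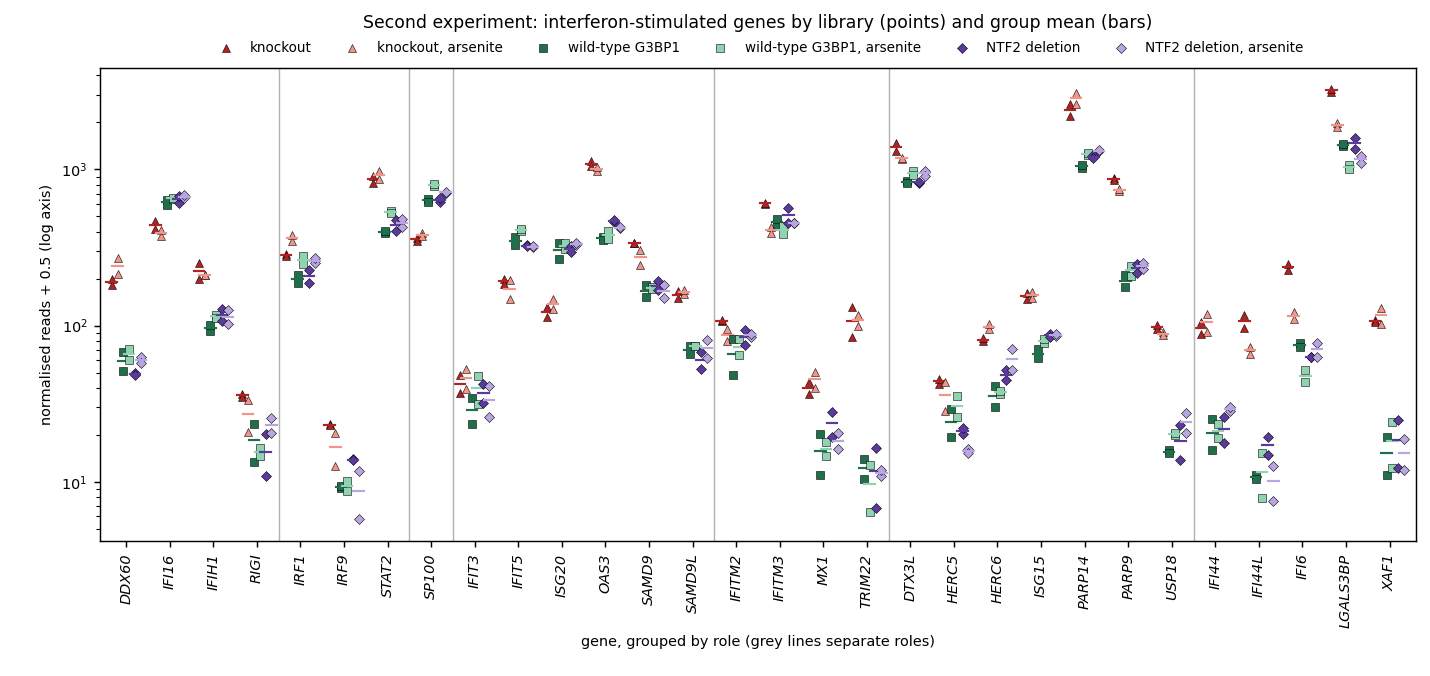
Normalised reads plus 0.5 (log axis) of the 30 genes used in all 7 second-experiment tables; each point is 1 library, each bar a group mean, and lighter symbols are the arsenite-treated groups. Knockout symbols stand above the rescues for most genes, and IFI16, SP100, IFIT5 and ISG20 show the reverse.

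The 2 forms of G3BP1 were compared through the difference of their log2 fold changes, with a two-sided normal test and Benjamini-Hochberg adjustment over all 16210 genes measured in both tables. No member of 35 was called, and 0.0185% of all genes were. By unadjusted p under 0.05 there were 2 members, IFIT1 and OAS3, both lower with wild-type than with NTF2-deletion rescue. The share of all genes under that unadjusted threshold was not counted. For OAS3 the difference was -0.36 log2 units (95% interval -0.69 to -0.04) and for IFIT1 -1.51 (95% interval -2.89 to -0.13), with adjusted p of 0.999944 for both. The signs of the differences were unequal in number, 26 negative and 9 positive, with a median of -0.13, where the median over all genes was -0.006. Signs over all genes were not counted. The 2 unadjusted values and the signs are therefore not read as a difference between the forms. Because both tables share the knockout libraries, the summed error is too large for the difference, and a missed threshold does not show that the 2 forms act alike. The 21 members that fell with both forms and the 4 that rose with both (SP100, IFIT5, ISG20 and, without centring, IFI16) leave IRF1, IFITM3 and HERC6 as those called with the wild-type form only.

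Set side by side, the 2 experiments mirrored each other for most members and conflicted for a few. They share no library. Of the 22 members that rose in the first knockout, 19 fell with wild-type rescue in the second experiment, HERC5 and MX1 were not called, and ISG20 rose. Over all tested genes 23% were lower with wild-type rescue. How many of all genes higher in the first knockout fell with rescue was not counted, nor were shared signs over all genes. The mirroring therefore cannot be read as particular to the members. Of the 6 that fell in the first knockout, SP100 and IFIT5 rose with rescue, IFI27 was too low to be used, and STAT2, IFIT1 and TRIM22 fell with rescue too. Over the 35 members measured in both, 26 had a higher knockout level in both experiments by the sign of the fold change, 2 had a lower one in both, and 7 differed. Pearson's r between the 2 fold changes was -0.19 and Spearman's rho -0.33, given as a description over genes that are not independent.

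The conflict was clearest for IFIT1. In the first experiment it had 219.9/236 normalised reads in knockout and 338/373 in the rescue, and in the second 66.5/75.2 in knockout and 0/0.99 in the wild-type rescue. The rescue library was thus the higher in one experiment and nearly empty in the other. The rescue-to-knockout difference was tested between experiments in the same way as the 2 G3BP1 forms, and 14 of 35 members differed, 12 with a lower and 2 with a higher value in the second experiment, where 37.3% of all genes differed (17% lower, 20.3% higher). IFIT1 differed by -4.80 log2 units (95% interval -5.91 to -3.68, adjusted p = 8.21e-16), TRIM22 by -2.98 (95% interval -3.83 to -2.14), and ISG20 by 1.78 (95% interval 1.24 to 2.32). G3BP1 levels in the 2 rescues differed as well: knockout over the first rescue was -0.69 log2 units, and wild-type rescue over knockout in the second experiment was 7.31, both for G3BP1 in the authors' deposited table of each. The part of that difference in the unequal responses was not tested.

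**Figure D3:**
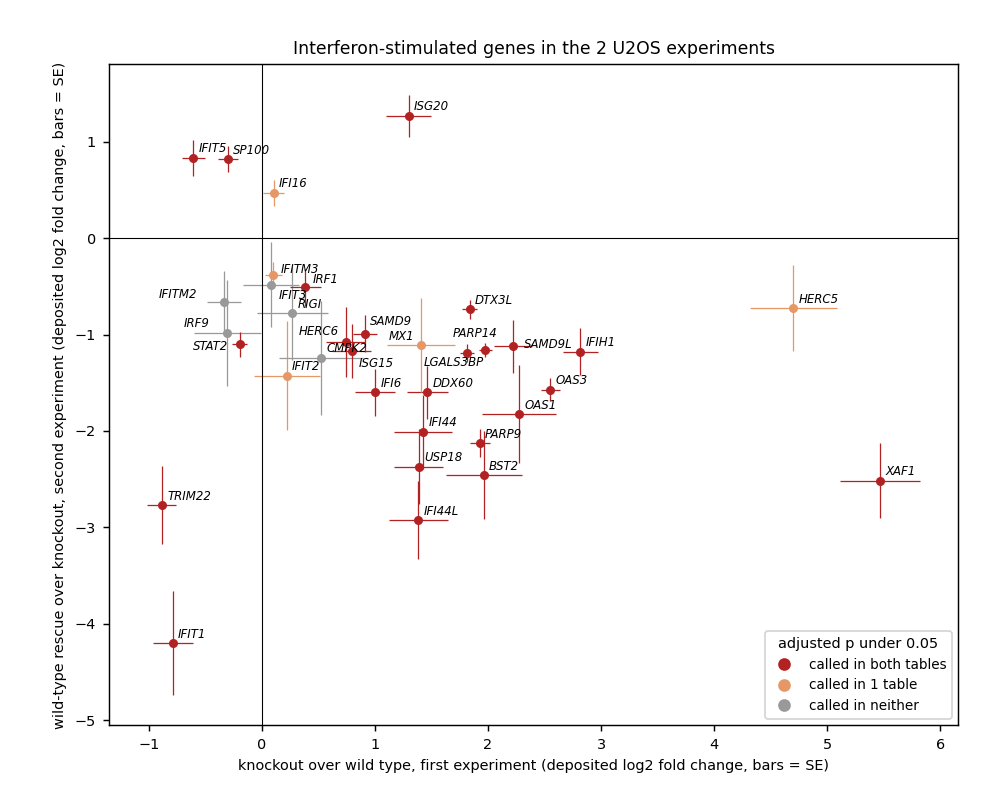
Deposited log2 fold change of knockout over wild type in the first experiment (x axis) against wild-type rescue over knockout in the second (y axis) for the 35 genes measured in both; bars are SE and colour gives the number of tables in which a gene was called. Most genes lie in the lower right, ISG20 is the gene in the upper right that was called in both tables, and IFIT1, TRIM22 and STAT2 lie in the lower left.

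Arsenite for 2 h changed few of these genes. In knockout cells 3 of 36 measured members fell and 0 rose, where 19.4% of all tested genes were called (10.9% lower, 8.56% higher). In wild-type rescue 2 of 22 members with an adjusted p fell and 3 rose, where 20.4% of genes were called (12.2% lower, 8.18% higher), and in NTF2-deletion rescue 1 of 18 fell and 0 rose, where 8.57% were called (6.14% lower, 2.43% higher). The share of members called lay below the background in knockout and NTF2-deletion rescue and slightly above it in wild-type rescue. The prior that shrank the deposited fold changes toward 0 was narrower in the arsenite tables of both rescues than in any other U2OS table. Its width was 0.371 log2 units for the wild-type form, 0.279 for the NTF2-deletion form and 0.636 in the arsenite table of knockout cells.

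LGALS3BP was the member called with arsenite in all 3 backgrounds. It had 3152/3267 normalised reads in knockout without and 1879/1977 with arsenite. In wild-type rescue it had 1402/1460.1 without and 1011/1067 with arsenite. The NTF2-deletion rescue held 1358/1593 without and 1105/1216 with it. The groups did not overlap in any of the 3 pairs. The log2 fold changes were -0.73 ± 0.07 (adjusted p = 1.02e-20), -0.51 ± 0.06 (adjusted p = 3.12e-16) and -0.32 ± 0.08 (adjusted p = 0.00216) in the authors' deposited table of each background. IFI6 fell in knockout, from 228/246 to 109.6/122 normalised reads, and in wild-type rescue, from 72.3/76.9 to 42.9/51.3. In NTF2-deletion rescue IFI6 had 62.2/62.2 without and 62.6/77.1 with arsenite and was not called. IFITM3 fell in knockout, from 604/606 to 394/429.5. The 3 members that rose in wild-type rescue were STAT2 at 0.34, SP100 at 0.25 and PARP14 at 0.20 log2 units in the authors' deposited table.

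The arsenite response itself differed between backgrounds for 3 members, and the shares of members called were near those over all genes. Between NTF2-deletion rescue and knockout, DTX3L, IFI6 and LGALS3BP differed, of 31 members tested, all with a higher value in the rescue, where 7.12% of all genes differed (4.04% higher, 3.08% lower). IFI6 had the widest difference, 0.98 log2 units (95% interval 0.50 to 1.46, adjusted p = 0.0017). Between wild-type rescue and knockout DTX3L alone of 30 members differed, by 0.36 (95% interval 0.13 to 0.59, adjusted p = 0.0488), where 4.51% of genes did (1.82% higher, 2.68% lower), and that call was lost once each table was centred on its median gene (adjusted p = 0.0752). DTX3L had 1312/1469 normalised reads in knockout without and 1164/1188 with arsenite, and 824/839 and 924/970.3 in wild-type rescue, lower with arsenite in knockout and higher in the rescue, and neither was called on its own. Between the 2 rescue forms no member of 30 differed by this test (2 at an unadjusted p under 0.05, IFI6 and STAT2), where 0.328% of genes did. The share of all genes at the unadjusted threshold was not counted.

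**Figure D4:**
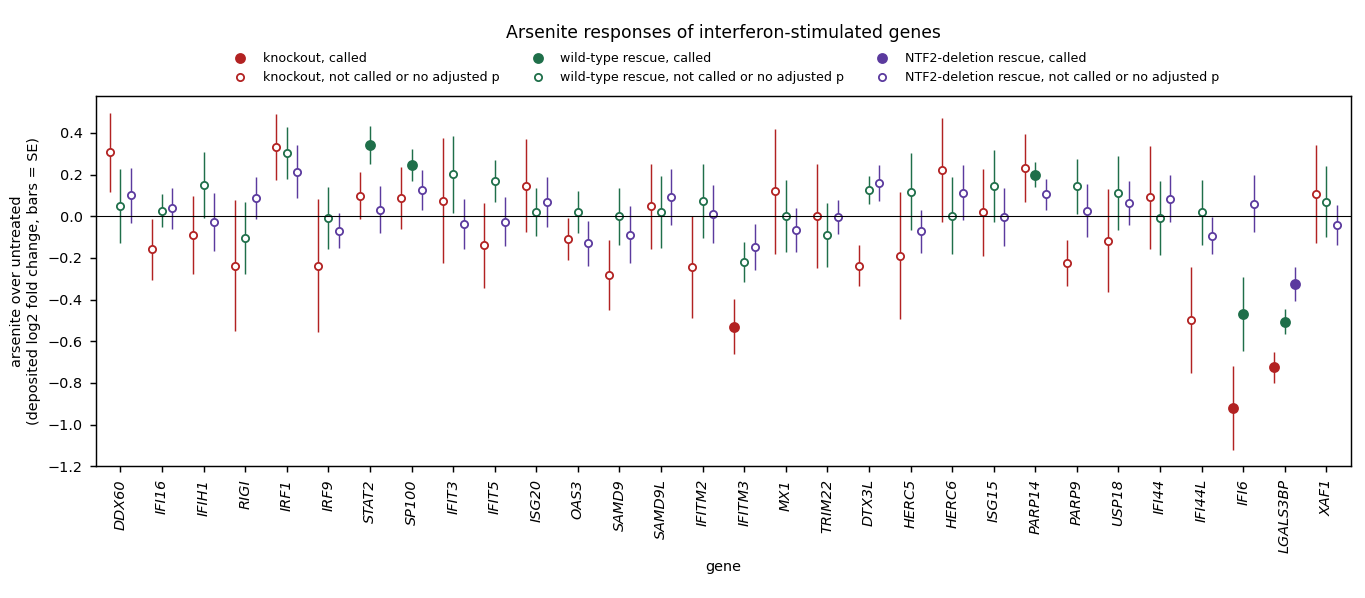
Deposited log2 fold change of arsenite over untreated for the 30 genes measured in all 3 backgrounds; bars are SE, filled points were called, and colour gives the background. Nearly all points lie near 0, with LGALS3BP below 0 in every background and IFI6 below 0 in knockout and wild-type rescue.

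Rescue and knockout also differed for most members when the rescue cells were stressed. Compared with untreated knockout, 23 of 36 members were lower and 4 higher in arsenite-treated wild-type rescue, where 56.4% of genes were called (24.4% lower, 32% higher). The corresponding counts for NTF2-deletion rescue were 22 and 4 of 35, where 54.3% were called (24.3% lower, 30% higher). With Wald statistics divided by their robust spread, 3 members passed in each. With arsenite on both sides, a comparison added after the data had been seen, 22 of 36 members were lower and 4 higher in wild-type rescue than in knockout (45.4% of genes called, 19.3% lower and 26.1% higher), and 19 of 35 lower and 4 higher in NTF2-deletion rescue (43.4%, 19.2% lower and 24.3% higher). XAF1 had 102/130.1 normalised reads in arsenite-treated knockout, 11.8/23.6 with the wild-type form and 11.4/18.3 with the NTF2-deletion form. PARP9 had 724/744, 209/242 and 231/249.7 in the same order. Between the 2 treated rescues no member of 35 differed by the difference test, 0 also at an unadjusted p under 0.05, where 0.0785% of genes did.

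In embryonic kidney cells the members' transcripts were split between immunoprecipitate and input. Of 25 measured members 8 were higher and 11 lower in the G3BP1 immunoprecipitate, where 75.1% of all tested genes were called (37.1% higher, 37.9% lower), so the members' share, 19 of 25, was near the background, and with Wald statistics divided by their robust spread of 7.07 no member passed. The table gives no values per library that could be worked out. IFI35 at 2.58 ± 0.41 (adjusted p = 1.70e-09) and IFI6 at 2.12 ± 0.23 (adjusted p = 4.54e-19) were the most enriched, and PARP14 at -3.08 ± 0.24 (adjusted p = 2.53e-37) and OAS3 at -2.45 ± 0.31 (adjusted p = 1.88e-14) the most depleted, as log2 units in the authors' deposited table. Transcripts of the membrane proteins IFITM1, IFITM2 and BST2 were all enriched, at 1.11, 1.24 and 1.97 in the authors' deposited table, and that of IFITM3 had 0.84 and was not called. In the ISG15 and ADP-ribosylation group 5 of 7 were depleted, PARP9, PARP14, DTX3L, HERC5 and HERC6, while USP18 was enriched at 1.93 in the authors' deposited table and ISG15 was not called. Both measured sensors, IFIH1 and DDX60, were depleted.

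The side a transcript took in the RIP and its direction in U2OS knockout cells were set side by side. Among 23 members measured in both, 10 had a positive knockout over wild-type change and a negative RIP value, 8 were positive in both, 2 negative in both and 3 the reverse. LGALS3BP, IFI6, BST2 and USP18 rose in knockout and were enriched, while PARP14, OAS3, HERC5 and DTX3L rose in knockout and were depleted. IFIT1, which fell in the first knockout, was enriched, and the authors' deposited table gave 1.39 ± 0.27 log2 units (adjusted p = 1.10e-06).

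**Figure D5:**
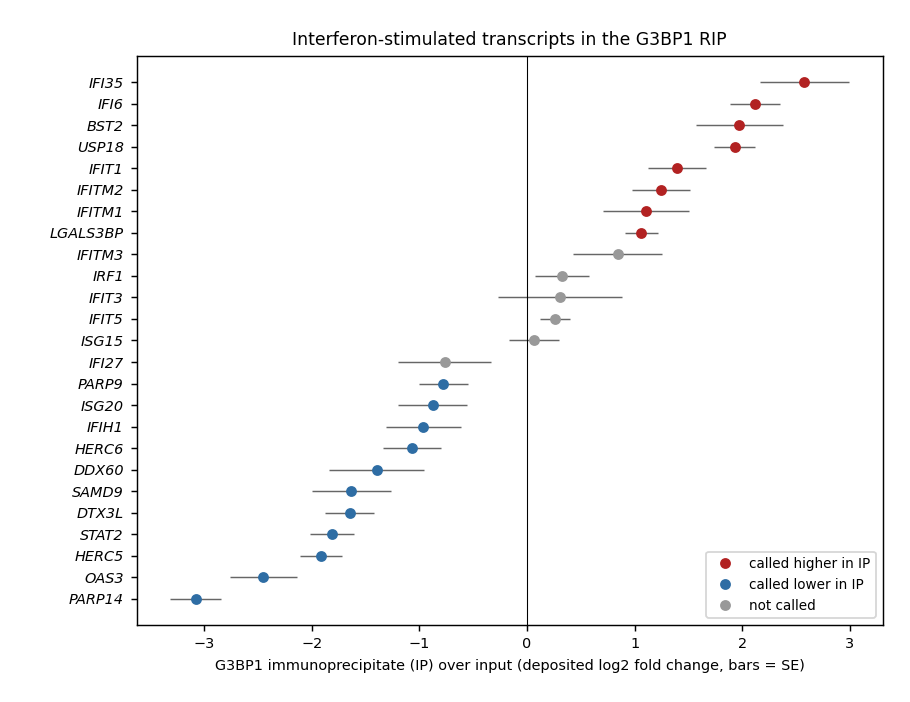
Deposited log2 fold change of G3BP1 immunoprecipitate over input for the 25 genes used, in order of value; bars are SE and colour gives the call. IFI35, IFI6, BST2 and USP18 stand at the enriched end near 2, and PARP14 and OAS3 at the depleted end below -2.

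The promoter core divided the members as follows. Of the 23 genes with the core in the window, 15 rose and 3 fell in the first knockout, 2 were not called and 3 were too low to be used. Of the 14 with a window but no core, 6 rose, 2 fell, 4 were not called and 2 were too low. Among tested genes outside the set, 27.5% of the 382 with the core were higher in knockout and 28.5% lower, against 25.1% and 30% of the 11665 with a window and no core. With wild-type rescue in the second experiment 14 genes with the core fell and 2 rose, and 7 without it fell and 2 rose. Outside the set, 25.1% of the 346 genes with the core were lower with wild-type rescue and 39.3% higher, against 23.9% and 34.3% of the 10507 without it. Genes with a core went both ways, since IFIT1 and IFIT5 fell in the first knockout while ISG15 and PARP9 rose. XAF1, with the largest rise, had no core in its window.

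The members were also set beside the genes around them. The median log2 fold change of the 10 nearest tested genes that are no members ran from -1.31 (IFI27) to 0.80 (MX1) in the knockout table. It was 0.75 for DDX60, 0.68 for PARP9 and 0.59 for DTX3L and PARP14. For IFIT1, IFIT2, IFIT3 and IFIT5 it was -0.57, and for LGALS3BP, which rose, -0.61. The part of the surroundings in the members' values was not tested.

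Other genes of the pathway, taken from lists of sensing, receptor, regulator and further interferon-induced genes, were called in both directions. Of 54 measured, 30 were higher and 9 lower in knockout than in wild type, with a median log2 fold change of 0.31, where 22.2% of all tested genes were higher and 23.7% lower. Of 49 measured with wild-type rescue 22 were lower and 10 higher, where 23% of all genes were lower and 28.8% higher. The ISG15-activating enzyme gene UBA7 had 303/381 normalised reads in knockout and 16.2/29.7 in wild type, and 123/153 in the second knockout against 6.93/15.4 in wild-type rescue. The conjugating enzyme gene UBE2L6 had 1236/1285 against 427/490.5, and 374/388 against 90.4/109. TRIM25, a ubiquitin ligase that can also attach ISG15 and the remaining gene of the 3-gene ISG15 conjugation list, was lower, with 4821/4904 in the first knockout and 6809/7188 in wild type. APOL1, which encodes a trypanosome-lysing apolipoprotein, had 3099.6/3406 in knockout and 38.6/51.7 in wild type, and TLR3, the endosomal sensor of double-stranded RNA, 192/243 and 41.5/43.6. IFNLR1, of the receptor and signal list, went the other way, with 0/0 in knockout, 180/205 in wild type and 73.6/104 in the first rescue. In the second experiment it had 0/0 in knockout and 0/0 in wild-type rescue. By group, 8 of 13 sensing genes were higher and 2 lower in knockout, 5 and 2 of 11 receptor and signal genes, 5 and 1 of 6 negative regulators, 2 and 1 of 3 ISG15 conjugation genes, and 14 and 4 of 28 other interferon-induced genes. NTF2-deletion rescue gave 22 lower and 10 higher of 50, where 22.8% of all genes were lower and 28.5% higher. The RIP gave 18 enriched and 17 depleted of 42, near the shares over all genes of 37.1% and 37.9%.

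Immune-cell markers were checked because such cells express many of these genes. CD3E had a base mean of 0, and the 6-gene list without ITGAM summed to 18.0 and 22.7 normalised reads in the first knockout, 61.4 and 66.9 in wild type. ITGAM, an integrin gene of myeloid cells, moved with the members: it had 1386/1476 normalised reads in knockout, 20.3/20.8 in wild type and 440.2/449 in the first rescue, and 300.3/363 in the second knockout against 157/162 in wild-type rescue. The part of ITGAM's change in that of the members was not tested. Of the defining markers, the pan-leukocyte gene PTPRC was lower in knockout (a log2 fold change of -2.34 in the authors' deposited table), and 2 of the 6 genes were at 0 in both knockout libraries of the first experiment. CDH1 and EPCAM, epithelial markers, together held 415 and 439 in knockout and 495 and 575 in wild type.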

How the data were processed

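Human U2OS cells and a 293-derived line were profiled by RNA sequencing. Per the labels' protocols, RNA was extracted with TRIzol, poly-A selected and made into strand-specific libraries. Per the submitters' processing notes, the tools were STAR (2.7.0f, with a further entry 1.5.3) and DESeq2 2.11.40.6. The genome build, annotation and counting settings are not given in the sources used here. Of 72 libraries, the 24 in 11 groups behind the authors' 11 deposited tables were used, and 48 were not analysed here.

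Per the file headers, each table gives a base mean (a normalised signal), a log2 fold change with its standard error, a Wald score, and a p-value and adjusted p-value from DESeq2, all computed by the authors. The deposited log2 fold changes had been shrunken by a prior whose width ran from 0.279 to 1.33 log2 units, so folds of different tables are not on one scale. The 4 summary lines per table, 25.8 to 43.8% of reads, were left out. A gene counted as called at a deposited adjusted p under 0.05 with a base mean of at least 10.

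Whole reads per library were solved from the base means of tables that share libraries. On simulated data the true reads of 80 of 80 genes were among the solutions. That check did not ask whether they were the only solution, and did not cover base means as high as that of LGALS3BP. For each member 1 set of reads met all comparisons of an experiment. Libraries within a group carry no number. Differences between tables were divided by the root of the summed squared standard errors and given two-sided normal p-values, with Benjamini-Hochberg adjustment over all genes measured in both; where tables share libraries these p-values are conservative. Every member with a base mean of at least 10 could be named, with full statistics for at most the 4 largest called changes per comparison and for members of protein families. The members and all lists were chosen with earlier results of these data known. Promoter windows were RefSeq's, on GRCh38.p14. Alternatives were a stricter base mean or adjusted p, centring, undoing the shrinkage, dividing the Wald statistics by their spread, leaving out 1 library, and a stricter motif. Tools were Python 3.11.15, numpy 2.4.6, pandas 2.3.3, scipy 1.17.1 and matplotlib 3.10.9. Counting intervals are exact Clopper-Pearson intervals at 95% and cover counting error only.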

Additional observations from a re-analysis of the deposited data

Results flagged for a closer look

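The difference tests called 18 gene and contrast combinations in which 2 backgrounds or experiments gave different responses. Over all genes, 4.51% differed in arsenite response between wild-type rescue and knockout and 7.12% between NTF2-deletion rescue and knockout. Between the experiments 37.3% did. All 18 were also called with the shrinkage of the deposited folds undone, and 16 of them with each table centred on its median gene, the exceptions being the 2 DTX3L results whose centred values are given here.

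The arsenite response of DTX3L was higher in wild-type rescue than in knockout by 0.36 ± 0.12 log2 units (SE, adjusted p = 0.0488), and centred it was 0.34 (adjusted p = 0.0752). In NTF2-deletion rescue it was higher than in knockout by 0.40 ± 0.13 (adjusted p = 0.0345). The response of LGALS3BP, which fell with arsenite in all 3 backgrounds, was 0.40 ± 0.11 higher in NTF2-deletion rescue than in knockout (adjusted p = 0.00763), and that of IFI6 0.98 ± 0.24 higher (adjusted p = 0.0017).

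A rescue-to-knockout difference unequal in the 2 experiments was called for 14 of 35 members, 12 lower and 2 higher in the second. Over all genes 37.3% were called (17% lower, 20.3% higher), so the total was near the background. The difference between rescue and knockout is given as second minus first experiment in log2 units. It was higher in the second experiment for ISG20 (1.78, adjusted p = 1.35e-09) and DTX3L (0.29, adjusted p = 0.0366; centred 0.16, adjusted p = 0.29). Among effectors on RNA it was lower for IFIT1 (-4.80), IFIT2 (-1.76) and OAS3 (-0.34). Among genes of virus entry or release it was lower for TRIM22 (-2.98) and IFITM2 (-0.84). In the ISG15 and ADP-ribosylation group it was lower for USP18 (-1.55), ISG15 (-1.07) and PARP9 (-0.82). The other genes with a lower value were IFI44L (-2.65), IFI44 (-1.69), IFI6 (-0.94) and STAT2 (-0.86). The shrinkage of the deposited folds differed between the experiments, and with it undone each of these results was still called. Depth and the rise of G3BP1 over knockout in the rescues also differed between the experiments, and their part was not tested.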

How the results depend on the processing

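Of 99 counts of called members recomputed under an alternative, 88 were within 1.5 times the value given. With the Wald statistics divided by their robust spread over all genes (1.07 to 7.07), 9 members were called for knockout against wild type, 7 for knockout against the first rescue, 7 for wild type against the first rescue, 4 for each rescue against knockout in the second experiment, 3 for each arsenite-treated rescue against knockout, 1 for arsenite in wild-type rescue and 0 in the RIP. The arsenite difference between wild-type rescue and knockout had 0 called members when centred and 0 at an adjusted p under 0.01. The stricter motif left 13 promoters. Centring left 2 single calls without significance, SP100 between wild type and the first rescue (-0.14) and IFI16 with wild-type rescue (0.29). Leaving out 1 library at a time gave 744 ratios of group means for 186 calls in 10 tables, of which 0 changed sign. In these ratios 0.5 normalised reads were added to each mean. Beside the cases in the report, it moved BST2 in arsenite-treated wild-type rescue from -3.10 to -3.85, and in arsenite-treated NTF2-deletion rescue IFIT1 from -4.16 to -3.43 or -5.70 and OAS1 from -2.55 to -3.72 or -1.91. No paired analysis was possible because the deposited tables give no value per library and the libraries worked out from them carry no replicate number. The RIP could not be taken apart by library, and levels of a few reads (HERC5 and XAF1 in wild type, IFIT1 in the second wild-type rescue) limit the precision of their ratios.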

Other observations

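The guanylate-binding protein genes GBP1 and GBP2 of the wider pathway list, whose products attack vacuoles of intracellular pathogens, moved with arsenite where the members above hardly did. GBP1 had 84.9/86.5 normalised reads in untreated knockout and 1390.0/1568 after arsenite, with no overlap, a log2 fold change of 3.87 ± 0.15 (adjusted p = 3.29e-154) in the authors' deposited table. In wild-type rescue it had 17.8/26.9 without and 42.2/48.2 with arsenite, while NTF2-deletion rescue held 34.2/43.4 without and 42.9/56.5 with it. The arsenite response of GBP1 was lower than in knockout by the difference test in both, at -3.41 (adjusted p = 7.49e-45) for wild-type rescue and -3.77 (adjusted p = 1.27e-81) for NTF2-deletion rescue. GBP2 had 24.7/40.9 in untreated knockout and 147/172 after arsenite. Both genes were singled out after their values were seen.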
